A study of Mus musculus with 6 samples.

Results

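miR-210 was represented by 2 of the 756 sequences in the small RNA table, the 3p arm and the 5p arm of a single hairpin. They were taken by name: every deposited sequence called miR-210 in any species, both arms and any variant ends. The libraries came from cells labelled Mes23.5, a dopaminergic hybrid of mouse neuroblastoma and rat midbrain cells. In 3 libraries the cells had received extracellular vesicles from microglia overexpressing SIX2, a homeobox transcription factor (SIX2_EV), and in 3 they had received those from control microglia (control_EV). All 6 were labelled as stimulated for 24 h with LPS, a component of bacterial cell walls. Their growth protocol speaks of BV2 cells, which are mouse microglia, so the cell of origin is given only as labelled. No age, sex or separate culture is recorded for the libraries, so p-values rest on a spread between libraries that may be technical only.

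miR-210 is best known for its response to low oxygen. Its gene is switched on by hypoxia-inducible factor (HIF), the transcription factor that cells stabilise when oxygen falls, and the 3p arm represses genes of mitochondrial respiration such as the iron-sulfur cluster scaffold Iscu. In mouse macrophages miR-210 has also been reported to dampen the response to LPS by acting on Nfkb1. miRNAs are cut in pairs from a hairpin, and one arm is usually retained while the other is degraded. Extracellular vesicles carry miRNAs between cells, so reads made by the recipient cells and reads brought by vesicles cannot be told apart here, nor can fewer cells with miR-210 and less miR-210 per cell.

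The mouse hairpin is shown with both mature arms in capitals, the 5p arm first, because all miR-210 reads came from these stretches. Below it stand the mature arms with the seed, bases 2 to 8, in capitals, since the seed sets which messages a miRNA pairs with. The sequences are from RefSeq on build GRCm38.p6.
Mir210 hairpin: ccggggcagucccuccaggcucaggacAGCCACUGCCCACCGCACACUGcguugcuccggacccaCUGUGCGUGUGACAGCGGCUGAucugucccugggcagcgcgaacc
miR-210-3p: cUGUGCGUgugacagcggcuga
miR-210-5p: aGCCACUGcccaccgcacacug

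In GRCm38.p6 the hairpin of 110 bases lies on the minus strand at chr7:141221384-141221493, with the 3p arm at chr7:141221407-141221428 and the 5p arm at chr7:141221445-141221466. GENCODE M21 annotates it as the miRNA gene Mir210, which overlaps no other annotated gene, 2725 bases from the protein-coding gene Rassf7 and 7290 bases from Phrf1. The deposited table places the hairpin on chromosome 7 at 140801296 to 140801406 in a build it does not name, so its positions and those of GRCm38 were kept apart. Each arm occurred without mismatch on the sense strand in GENCODE transcripts of 1 gene, Mir210. No other deposited sequence and no other of the 1738 mature mouse miRNAs in RefSeq had the seed of either arm. Reads counted as miR-210 therefore shared neither their exact sequence with another annotated gene nor their seed with another listed miRNA.

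Both arms carry rat names in the table, although the hairpin was placed on the mouse genome. The deposited 3p sequence is the same in the rat and the mouse, so its reads do not tell the species. The 5p arm differs by A14C, counted from 1 at the 5′ end, with the rat-named sequence given first. The pair is shown with that base in capitals.
rat-named miR-210-5p: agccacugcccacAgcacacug
listed miR-210-5p: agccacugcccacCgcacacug

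The listed 5p sequence was identical to the mouse miRNA in RefSeq, and no sequence with the rat base was among the deposited rows. The 3p sequence had exactly the annotated ends. It was 1 of 219 among 515 mature-named sequences that matched miRBase in full, and no variant of it with longer or shorter ends was listed. Of the 27 rat-named mature sequences with a substitution, 16 occurred whole in a mouse hairpin of RefSeq.

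The libraries differed in depth and in content, and this touches every level given here. Deposited reads numbered 179621 to 232635 in SIX2_EV and 253037 to 421279 in control_EV. Sequences with a mature miRNA name took 25.5%, 26.6% and 37.8% of them in SIX2_EV and 37.2%, 59.8% and 73.4% in control_EV. Within these, sequences that belong to a mouse hairpin made up 54.5%, 25.5% and 86.3% in SIX2_EV and 84.7%, 94.8% and 96.5% in control_EV. Most of the rest carried cattle names without a mouse hairpin, led by bta-miR-11987, at 44.5%, 73.4% and 12.9% of mature-named reads in SIX2_EV and 14.3%, 4.60% and 2.16% in control_EV. miR-210-3p was therefore counted against both totals. A position on the mouse genome was deposited for 98.8% to 99.5% of mature-named reads per library, those of bta-miR-11987 among them. As a check of the labelled cell type, 2 of 5 neuronal marker miRNAs were found by name. Neither miR-124-3p, the defining miRNA of neurons, nor miR-9-5p or miR-218-5p was listed under that name. The 2 neuronal markers summed to 8662 to 9894 reads per 1000000 mouse-hairpin reads (RPM) in SIX2_EV and 6926 to 8793 in control_EV. The myeloid markers, with miR-146a-5p in the lead, summed to 112738 to 147579 in SIX2_EV and 92778 to 132015 in control_EV. SIX2_EV replicates 1 to 3 held 3015, 2092 and 5601.5 reads of miR-146a-5p but 0, 0 and 61 of miR-223-3p. For control_EV the counts were 9013.5, 16663 and 21045 against 33, 38 and 461. miR-142-5p lay between them in every library. miR-146a is induced in inflammation and all 6 libraries were labelled as LPS-stimulated, so this sum does not settle the cell type. The blood and serum markers were searched under 6 names, and 4 were listed: miR-451-5p, miR-144-3p, miR-486-5p and miR-122-5p. The unmatched names, miR-451a and miR-486a-5p, are other names of listed members. With miR-451-5p in the lead, the markers summed to 50911 to 89767 in SIX2_EV and 32682 to 85454 in control_EV.

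miR-210-3p, the retained arm of the hairpin, was listed in all 6 libraries. It had 68, 54 and 118 reads in SIX2_EV and 271, 517 and 1201 reads in control_EV. As a share of reads with a mature miRNA name, again per 1000000 reads, it stood at 1487, 874 and 1693 RPM in SIX2_EV and at 2830, 3416 and 3882 RPM in control_EV. Every SIX2_EV library lay below every control_EV library. The means were 1351 ± 426 RPM in SIX2_EV and 3376 ± 527 RPM in control_EV (SD, n = 3 each), which made the share 2.50-fold lower in SIX2_EV. The exact two-sided permutation p was 0.1, the smallest that 3 against 3 libraries allow, and 0.15 after Benjamini-Hochberg adjustment over the 6 ways of expressing the level. Groups did not overlap, with SIX2_EV lower, for 83 of all 515 mature-named sequences (16.1%), so miR-210-3p was not alone in this. With total mature reads as library size, 89.0% of the 228 mature sequences tested had a negative log2 fold change, so a lower value was common on this scale. Against mature-named reads with a mouse position, the means were 1359 ± 428 RPM in SIX2_EV and 3403 ± 539 RPM in control_EV (SD, n = 3 each), again without overlap.

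On the scale of all mature-named reads the counting intervals of the groups did not overlap. The Wilson 95% interval of SIX2_EV replicate 3, the highest of its group, was 1414 to 2027 RPM, and that of control_EV replicate 1, the lowest of its group, was 2513 to 3187 RPM. Without molecular identifiers, reads may be PCR copies, so these intervals cover counting error only. Within the groups, control_EV replicates 3 and 2 had overlapping intervals, as had control_EV replicates 2 and 1 and SIX2_EV replicates 3 and 1. SIX2_EV replicate 2, with an interval of 670 to 1140 RPM, lay below SIX2_EV replicate 1, with 1173 to 1884 RPM.

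The order of the libraries changed when miR-210-3p was set against reads of mouse hairpins only. Its level was then 2727, 3422 and 1962 RPM of mouse-hairpin reads in SIX2_EV and 3340, 3602 and 4025 RPM in control_EV. SIX2_EV replicate 2, the lowest library on the first scale, lay above control_EV replicate 1, and SIX2_EV replicate 3, the highest of its group on the first scale, became the lowest of all. The means were 2704 ± 730 RPM in SIX2_EV and 3656 ± 345 RPM in control_EV (SD, n = 3 each), a share 1.35-fold lower in SIX2_EV. The groups overlapped (two-sided p of 0.2 by exact permutation, before and after adjustment over the 6 ways). The intervals of control_EV replicates 1, 2 and 3 were 2966 to 3761, 3305 to 3926 and 3804 to 4258 RPM. That of SIX2_EV replicate 1, 2152 to 3455 RPM, overlapped those of control_EV replicates 1 and 2. That of SIX2_EV replicate 2, 2624 to 4462, overlapped all 3 control_EV intervals, whereas that of SIX2_EV replicate 3, 1639 to 2349, lay below all 3. For comparison, 39 of 384 mature sequences of mouse hairpins (10.2%) were lower in SIX2_EV without overlap on this scale.

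Against miR-21-5p, the mature sequence with the highest mean share over the 6 libraries, the picture was like that of the mouse-hairpin scale. In SIX2_EV replicates 1 and 2, a bta-miR-11987 sequence had more reads, 9689 and 17835 against 4409 and 2805 for miR-21-5p. There were 15.4, 19.3 and 8.13 miR-210-3p reads per 1000 miR-21-5p reads in SIX2_EV and 18.5, 19.5 and 19.6 in control_EV. The control_EV libraries lay close together at 19.2 ± 0.63, while SIX2_EV averaged 14.3 ± 5.65 (SD, n = 3 each), and SIX2_EV replicate 2 fell inside the control_EV range (exact two-sided permutation p of 0.2). The authors' own normalized signal for miR-210-3p was 156.7, 183.5 and 126.1 in SIX2_EV and 229.6, 292.7 and 272.3 in control_EV, with no overlap and SIX2_EV replicate 3 the lowest (exact two-sided permutation p of 0.1). The share of all sequences without overlap on this signal was not counted. In a fit scaled by the authors' factors, 63.9% of the 319 sequences tested had a negative log2 fold change, with a median of -0.28. Rank among mature miRNAs of mouse hairpins needs no total. miR-210-3p ranked 67th, 58th and 76th in SIX2_EV and 50th, 48th and 52nd in control_EV, so it stood further down the list in each SIX2_EV library (exact two-sided permutation p of 0.1, or 0.15 after adjustment over the 6 ways). Of 210 such miRNAs tested, 17 (8.1%) ranked further down in every SIX2_EV library than in any control_EV library.

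**Figure D1:**
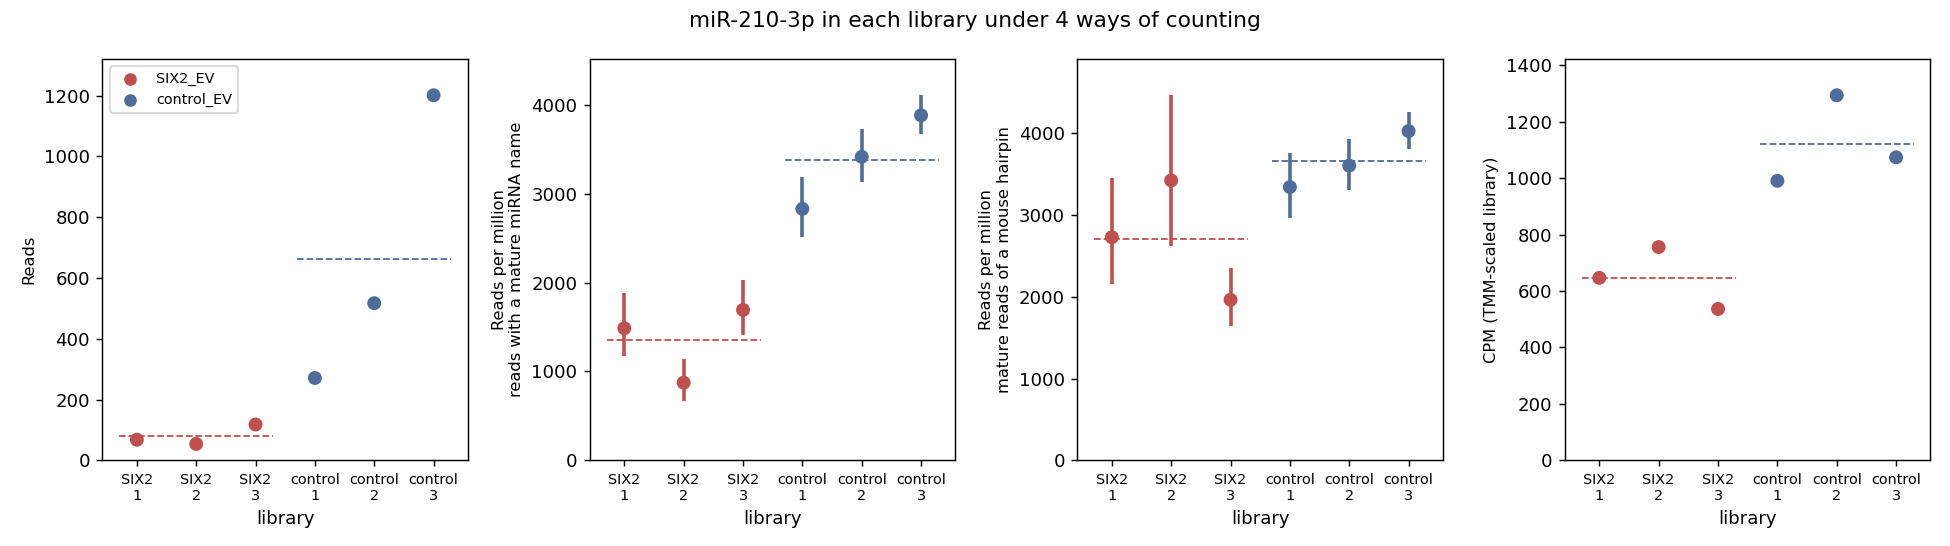
miR-210-3p in each library as reads, as RPM of mature-named reads, as RPM of the mature reads of mouse hairpins and as CPM of the TMM-scaled library. Points are libraries, vertical bars Wilson 95% intervals and dashed lines group means; the groups are apart in every panel except the third, where SIX2_EV replicate 2 at 3422 RPM lies above control_EV replicate 1 at 3340.

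The test across all sequences used TMM, a scaling that balances the bulk of sequences between libraries and so lies between the scales above, and CPM here means reads per 1000000 of that scaled library. The level of miR-210-3p in SIX2_EV was 647, 756 and 536 CPM, against 991, 1294 and 1074 CPM in control_EV. The groups did not overlap. This held with SIX2_EV lower for 54 of the 319 sequences tested (16.9%), 49 of them among the 210 mature miRNAs of mouse hairpins. The log2 fold change was -0.79 (SE 0.26), or 1.73-fold lower in SIX2_EV. The quasi-likelihood test of edgeR put its unadjusted p at 0.0219 and its adjusted p at 0.368. miR-210-3p thus did not pass the threshold of 0.05. None of the 319 did (0 called, 0%), while 39 (12.2%) had an unadjusted p under 0.05, 21 of them lower in SIX2_EV (6.58%). DESeq2 called 20 of 312 sequences (6.41%) and put miR-210-3p at -0.67 (SE 0.25) on the log2 scale, adjusted p 0.0765. Over all 18 alternatives its adjusted p was 0.0765 to 0.947. All 3 SIX2_EV libraries were lower than all 3 control_EV libraries, yet 96 of the 319 sequences had a more negative value than miR-210-3p, 73 of them among the 210 mature miRNAs of mouse hairpins.

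The size of the difference depended on the scaling and on the sequences kept. The log2 fold change was -2.25 with total reads in place of TMM for the same 319 sequences. It was -1.32 with total mature reads as library size and only the 228 mature sequences tested. It was -0.56 with TMM and -0.45 with total reads as library size when only mature miRNAs of mouse hairpins were tested. The median of the sequences tested in each of these fits was -0.30 with TMM and all sequences, -1.52 with total reads, -0.78 with total mature reads, -0.20 with mouse hairpins under TMM and -0.10 with their total. Relative to that median, miR-210-3p was at -0.50, -0.73, -0.54, -0.36 and -0.35 in the same order, on the log2 scale. Without SIX2_EV replicate 3 its log2 fold change was -0.53, and relative to the median of that fit -0.06, so it stood close to the bulk of sequences. With no filter on low counts its log2 fold change was -0.87 and the median of all 756 sequences -1.05, which put it at 0.18 relative to that median.

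**Figure D2:**
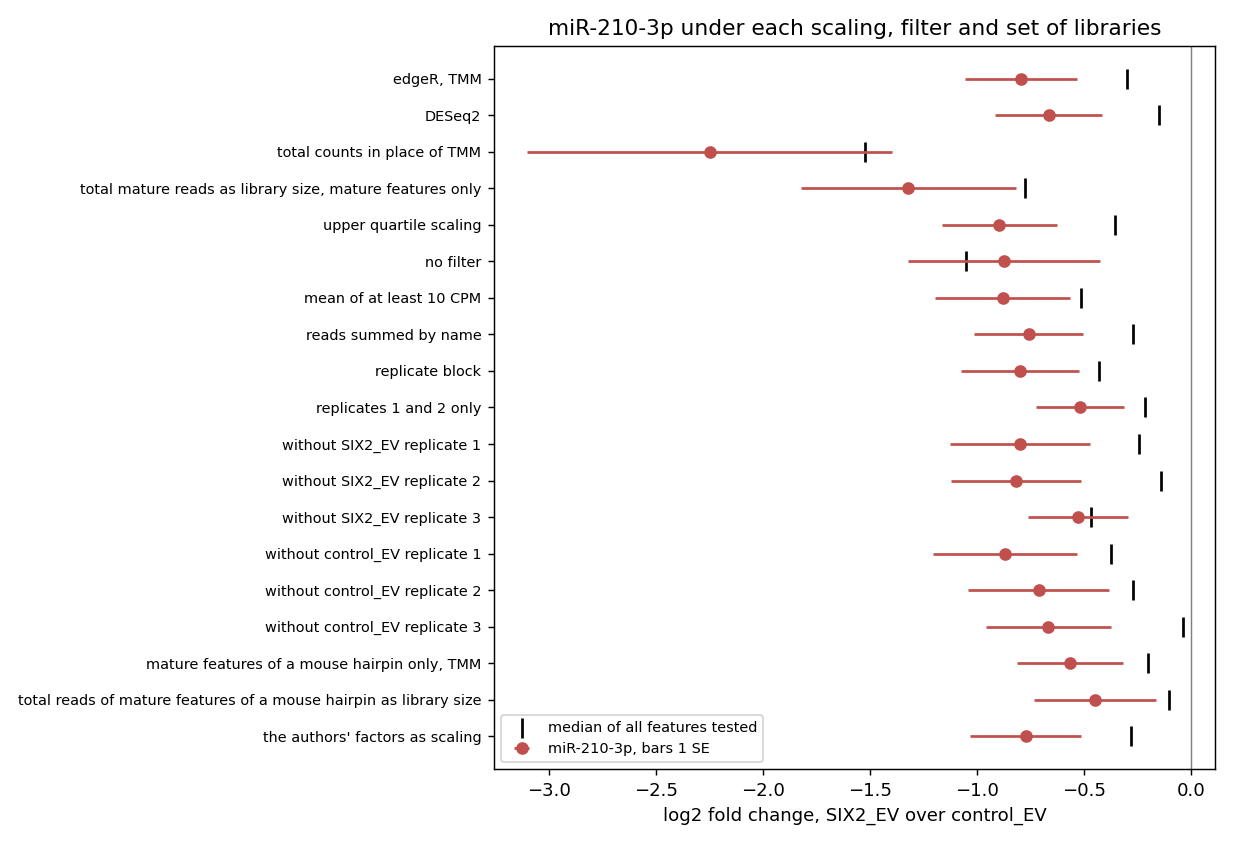
log2 fold change of miR-210-3p, SIX2_EV over control_EV, under each scaling, filter and choice of libraries, with bars of 1 SE; black marks give the median of all sequences tested in the same fit. Every estimate is below 0, from -2.25 with total reads to -0.45 with the total of mouse-hairpin reads; the marks range from -1.52 with total reads to -0.04 without control_EV replicate 3 and do not follow the estimate throughout.

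miR-210-5p, the partner arm, was scarce. The 3 SIX2_EV libraries and control_EV replicate 1 list it at 0, with 6 and 22 reads in control_EV replicates 2 and 3. Few values above 0 in the table are under 5 reads, so a 0 may stand for fewer reads than that rather than none. The 5p arm took 1.15% of miR-210 reads in control_EV replicate 2 (Wilson 95% interval 0.527 to 2.48) and 1.80% in control_EV replicate 3 (1.19 to 2.71). At the ratio of arms in control_EV replicate 3, the 3p reads of the other libraries correspond to 1.25, 0.99 and 2.16 reads of the 5p arm in SIX2_EV and to 4.96 in control_EV replicate 1. The SIX2_EV values are under the level of about 5 reads from which most sequences were listed, and that of control_EV replicate 1 is at it. The 5p arm did not pass the filter on low counts, and a difference in it between the groups was not detectable at this depth.

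Lesser arms can be compared only between hairpins that have both arms listed, which leaves out those whose lesser arm was under about 5 reads, so the shares of the others are set in part by this minimum. Among 87 mouse hairpins with both arms listed in control_EV replicate 3, the lesser arm took a median of 7.47% of reads, against 1.80% for miR-210, and 18 hairpins had a smaller lesser share. In control_EV replicate 2 there were 47 such hairpins, with a median of 11.8% against 1.15% for miR-210, and 5 were lower. The 3p arm led in 42 of the 87 and in 21 of the 47, so a leading 3p arm was common.

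By library, miR-210-3p ranked 75th, 69th and 82nd among mature-named sequences in SIX2_EV and 55th, 51st and 54th in control_EV. By its mean share of mature reads over all 6 libraries, which pools groups at different levels, it was the 67th of 515, at 2364 RPM. Next above it were miR-423-5p at 2403 and miR-185-5p at 2484 RPM, and next below it were miR-222-3p, a miRNA of proliferating cells, at 2295 and miR-146b-5p, a relative of the inflammation-induced miR-146a, at 2203 RPM. These 4 neighbours were chosen for their closeness in this mean, so their likeness to miR-210-3p in it is not a result. The groups overlapped for miR-423-5p, miR-222-3p and miR-146b-5p on this scale, but not for miR-185-5p and miR-210-3p. miR-222-3p averaged 2103 ± 1765 RPM in SIX2_EV and 2487 ± 527 in control_EV, with 4089 RPM in SIX2_EV replicate 3, where miR-210-3p had 1693 (SD, n = 3 each).

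The 5 mature sequences most like miR-210-3p across the 6 libraries were found by the mean absolute difference between log2 CPM profiles, each centred on its own mean. miR-93-5p was closest at 0.10, followed by miR-148b-3p at 0.11, miR-106b-5p at 0.14, and miR-101a-3p and miR-101b-3p at 0.15, where the median of all 247 compared was 0.73. The last 2 carry the same read counts, since the table splits the reads of one sequence over both names, so they count as 1. miR-93-5p and miR-106b-5p come from one cluster, a paralog of miR-17-92. miR-93-5p had 251, 200 and 465 reads in SIX2_EV, against 951, 1682 and 3658 reads in control_EV, a log2 fold change of -0.59 (SE 0.23). miR-148b-3p had 46, 33 and 79 reads in SIX2_EV and 207, 369 and 688 reads in control_EV, a log2 fold change of -0.87 (SE 0.31). The 5 were chosen for their likeness to miR-210-3p over these same libraries. Their negative log2 fold changes and shared low and high libraries follow from that choice and are not a result. Like miR-210-3p, each of these had its lowest CPM in SIX2_EV replicate 3, except miR-106b-5p, and its highest in control_EV replicate 2. All had an adjusted p of 0.368 by edgeR.

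**Figure D3:**
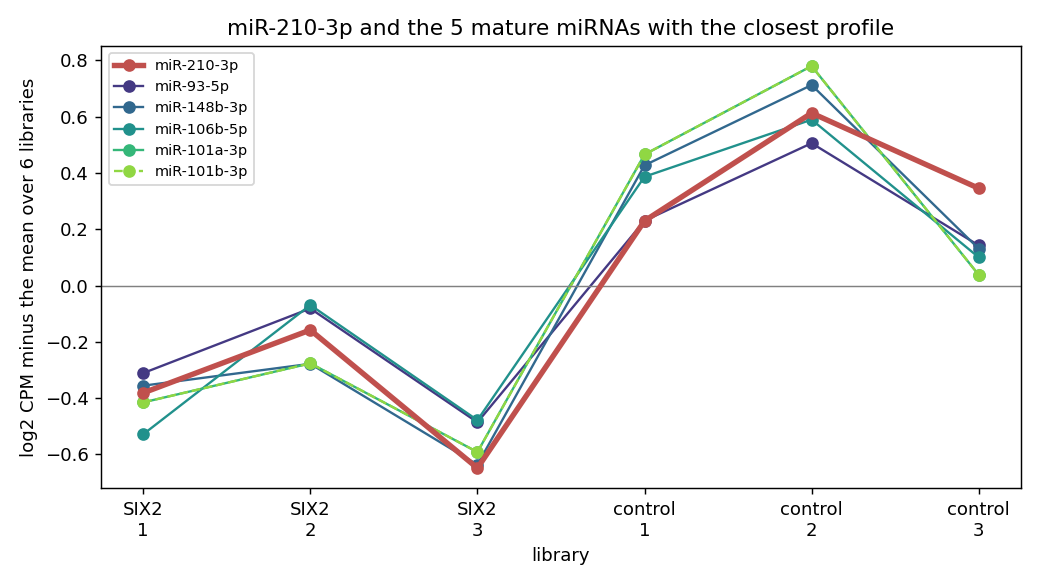
log2 CPM of miR-210-3p and of the 5 mature sequences with the closest profile, each minus its own mean over the 6 libraries; lines join the values of one miRNA and do not stand for an order of libraries. All lie below their mean in the SIX2_EV libraries and above it in the control_EV libraries, and miR-101a-3p and miR-101b-3p coincide. The 5 were chosen for this likeness, so it is not a result.

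Other miRNAs reported to respond to low oxygen had, as a list, a median close to that of all sequences and less negative than that of mature miRNAs of mouse hairpins. Of 17 chosen, 16 were listed and 15 tested. 0 passed the threshold by edgeR (0% of all tested) and 0 by DESeq2 (6.41% of all tested). An unadjusted p under 0.05 was found for 1 member by edgeR, against 12.2% of all tested. By DESeq2 it was found for 2 members, against 54 of all 319 sequences. Of the 15, 13 had negative values and 2 positive, against 206 negative of all 319 tested and 167 of the 210 mature miRNAs of mouse hairpins. The median log2 fold change was -0.29 beside -0.30 for all sequences tested and -0.43 for the mature miRNAs of mouse hairpins. Below all controls stood 3 of the 15, against 16.9% of all sequences and 49 of the 210 mature miRNAs of mouse hairpins. The most abundant member, miR-21-5p, averaged 49067 ± 14721 CPM over SIX2_EV libraries and 58273 ± 7012 CPM over control_EV libraries (SD, n = 3 each; log2 fold change -0.25, SE 0.56). miR-103-3p, which acts on lipid and insulin signalling, stood at 2463, 2142 and 2501 CPM in SIX2_EV, against 2333, 2525 and 3270 CPM in control_EV, with overlapping groups (log2 fold change -0.19, SE 0.23). miR-93-5p stood at 2387, 2800 and 2114 CPM in SIX2_EV, against 3477, 4209 and 3271 CPM in control_EV, without overlap (unadjusted p of 0.0439, adjusted p of 0.368 by edgeR). miR-107-3p, a near relative of miR-103-3p reported to act on the HIF partner ARNT in human cells, stood at 114, 154 and 191 CPM in SIX2_EV, against 325, 263 and 332 CPM in control_EV, a log2 fold change of -0.997 (SE 0.50). Its counts rest on 12.3, 10.7 and 41.7 reads in SIX2_EV, which the authors split with other names. miR-195a-5p was not matched by that name, and miR-181c-5p had 5 reads in 1 library.

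miRNAs reported to act on HIF or on proteins that control it had a more negative median. Of 12 chosen, 9 were listed and 8 tested, since miR-20b-5p, miR-138-5p and miR-429-3p were not matched by name and miR-200b-3p did not pass the filter. 7 had negative values and 1 positive, and the median log2 fold change was -0.97 beside -0.30 for all and -0.43 for mature miRNAs of mouse hairpins. 0 passed the threshold by edgeR and 0 by DESeq2 (6.41% of all tested). An unadjusted p under 0.05 was found for 2 members by edgeR, against 12.2% of all tested. By DESeq2 it was found for 3 members, against 54 of all 319 sequences. Below all controls stood 3 of the 8, against 16.9% of all sequences and 49 of the 210 mature miRNAs of mouse hairpins. The list holds miR-107-3p as well, and 3 members of the miR-17-92 cluster, miR-17-5p, miR-18a-5p and miR-20a-5p, which share a transcript and are reported to repress HIF-1 alpha in human cells. miR-20a-5p stood at 7238, 6650 and 4678 CPM in SIX2_EV, against 13016, 17268 and 7447 CPM in control_EV, a log2 fold change of -1.02 (SE 0.41). miR-17-5p stood at 3966, 3668 and 2210 CPM in SIX2_EV, against 6757, 8354 and 4486 CPM in control_EV, a log2 fold change of -0.99 (SE 0.36). Neither overlapped between groups, and edgeR gave both an adjusted p of 0.368. miR-22-3p, which represses HIF-1 alpha in human colon cancer cells, stood at 1978, 1484 and 1891 CPM in SIX2_EV, against 1945, 2450 and 1603 CPM in control_EV, with overlapping groups (log2 fold change -0.16, SE 0.26). With the total of mouse-hairpin reads as library size, the median of the oxygen-responsive list was 0.03, with 10 of 15 positive, and that of the HIF-acting list -0.59, with 5 of 8 negative, beside -0.10 for all sequences in that fit.

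**Figure D4:**
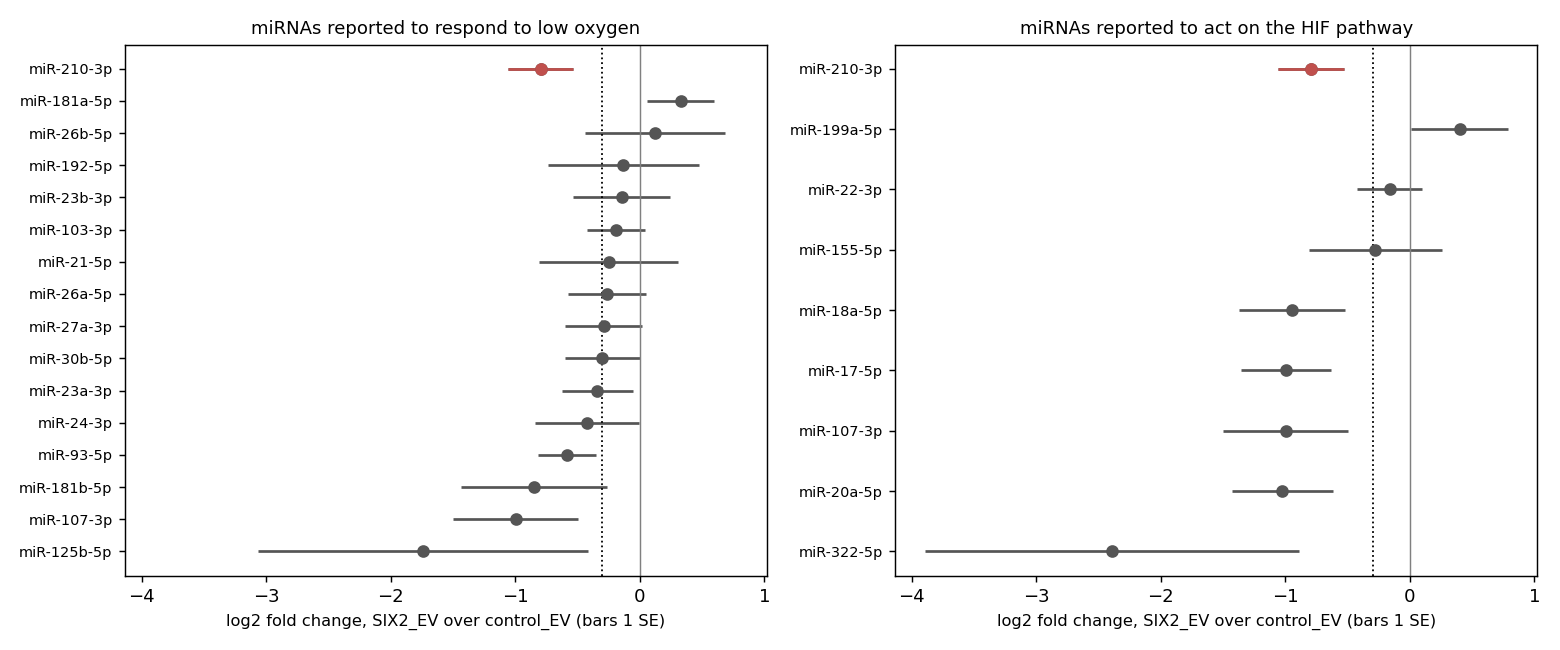
log2 fold change, SIX2_EV over control_EV, of miR-210-3p (red) and of the tested members of the 2 lists, with bars of 1 SE; the dotted line is the median of all sequences tested, -0.30. miR-210-3p at -0.79 lies below 12 of the 15 oxygen-responsive members and above 5 of the 8 HIF-acting members.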

How the data were processed

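Small RNA of 6 libraries was compared. Per the labels' protocols, the authors made TruSeq small RNA libraries from Trizol RNA and filtered reads with ACGT101-miR, which dropped adapter dimers, low-complexity reads, other RNA families and repeats. For the aligner, build and miRBase release, nothing is given in the sources used here. Values are, as deposited, estimated counts per sequence and locus, split over loci, and the authors' normalized signal, which is the count times 1 factor per library (0.227 to 3.40). A table minimum of about 5 reads was seen in the deposited values.

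Rows of one name and sequence were summed and rounded, giving 756 features from 823 rows; 89.8% of values were whole within 0.05. Mature features were those named miR or let-7, without the p5 or p3 of a hairpin's other sequences. A mouse hairpin means that the deposited hairpin list holds a mouse name. filterByExpr left 319 features, tested with edgeR 4.0.16 in R 4.3.3 (TMM, quasi-likelihood, no block, Benjamini-Hochberg), with SE taken as the log2 fold change over the root of F. DESeq2 1.42.0, other scalings, filters, a replicate block and left-out libraries were alternatives. Named miRNAs were the miR-210 arms, level neighbours, closest profiles and, per list, the 3 most abundant and the 2 with the smallest p. The procedure was tested on simulated data in which the libraries of a group shared one expected composition. The real libraries were less even, so that test does not cover them. Members, lists and tests were chosen with earlier results of these data known, and mouse-hairpin totals were added after the data were seen. Replicates of a group differed beyond counting error (lowest chi-square over its degrees of freedom 42.7).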

Additional observations from a re-analysis of the deposited data

How the results depend on the processing

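The log2 fold change of miR-210-3p was negative in all 18 alternatives, between -2.25 and -0.45, and its adjusted p stayed above the threshold in each, between 0.0765 and 0.947. Its share of mature reads was lower in SIX2_EV in all 14 alternatives; the groups overlapped against mouse-hairpin reads and against miR-21-5p. With 1 library left out, the log2 fold change was -0.87 to -0.53, the log2 ratio of shares -1.52 to -1.09, the oxygen-responsive median -0.39 to -0.14, the HIF-acting median -1.15 to -0.62 and the count of called sequences 0. DESeq2 called 20 sequences, 13 higher and 7 lower, against 0 in the other 17 alternatives. The oxygen-responsive median was -0.14 with DESeq2, -1.57 with total reads, -0.65 with total mature reads, -0.082 with TMM among mouse hairpins and 0.028 with their total. The HIF-acting median was -2.25 with total reads, -1.40 with total mature reads and -0.59 with the total of mouse-hairpin reads. The cause was not tested. With the replicate number as a block, the log2 fold change was -0.80 (adjusted p 0.315 by edgeR), 0 sequences were called, the list medians were -0.32 and -0.95, and the mean paired log2 ratio of shares was -1.36 (exact sign-flip p 0.25, the smallest possible). Deviations of same-numbered libraries correlated at 0.21, 0.07 and 0.67. SIX2_EV replicate 1 correlated at 0.36 with control_EV replicate 2, and SIX2_EV replicate 2 at 0.62 with control_EV replicate 1. Deviations from a mean of 3 libraries cannot settle whether the numbers are pairs, and the main fit used no block. No log2 fold change is given for miR-210-5p, which did not pass the filter. The few reads of SIX2_EV, 54 to 118 for miR-210-3p, limit the precision of its values.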
